A study of Mus musculus with 18 samples.

Results

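Thymic NKT1 cells of SKG mice were compared with those of WT mice across all genes. The comparison used 6 of the 18 RNA-seq libraries of the series, 3 from WT and 3 from SKG, chosen by their labels for genotype and cell type and by no measured value. Both genotypes were BALB/c. SKG mice carry a spontaneous point mutation in Zap70, and no other allele or treatment was named for either group. Per the methods, the BALB/cJ strain was crossed with SKG, and WT and SKG mice taken from the F2 were then bred separately to give the F3 that was used. The mutation and any other difference that became fixed between the separately bred families cannot be told apart. The age of the mice, and whether a library came from 1 animal or several, were not given in the sources used here. The p-values therefore measure spread between libraries only. That spread was estimated over all 18 libraries of the series, those of the other cell types included.

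Invariant natural killer T (iNKT) cells carry a T cell receptor (TCR) that binds lipid antigens on CD1d. They mature in the thymus into NKT1, NKT2 and NKT17 cells, named after the helper T cells whose cytokines they share. NKT1 cells depend on T-bet, the product of Tbx21, make interferon gamma and carry many receptors of natural killer (NK) cells. ZAP-70 is the kinase that binds the phosphorylated TCR complex and passes its signal on to adaptor proteins, and the SKG protein binds the receptor weakly. Here NKT1 cells were sorted as CD1d tetramer-binding cells low in ICOS and positive for CD49a, the product of Itga1, so these 2 genes describe the gate.

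The 3 WT libraries held 8895917, 5481321 and 6086437 counts and the 3 SKG libraries 5585398, 4938755 and 6027514. Levels are given below as CPM, counts scaled to a common library size with TMM factors, in the order of replicates 1, 2 and 3, and a difference is SKG minus WT on the log2 scale of the edgeR fit. The identity of the cells was checked with 6 markers each of NKT1 and NKT2 cells and 5 of NKT17 cells. Itga1, Icos and Sdc1 are on these lists and their products were used in the sorts. Part of the contrast between subsets was therefore set by the gates. The summed level of the NKT1 markers (Tbx21, Ifng, Cxcr3, Il2rb, Xcl1 and Itga1) was 4556 to 5106 CPM in WT and 3818 to 4200.2 CPM in SKG, against at most 406 CPM in any NKT2 or NKT17 library of the series. That of the NKT17 markers was at most 2.13 CPM in the NKT1 libraries and at least 1327 CPM in the NKT17 libraries. The NKT2 markers set the subsets apart less clearly. Their sum was 463 to 645 CPM in the NKT1 libraries, 1467 to 2093 CPM in the NKT2 libraries and 1367 to 1524 CPM in the NKT17 libraries. The summed NKT1 markers were lower in SKG and did not overlap between the genotypes. None of the 6 NKT1 markers was called by edgeR or DESeq2 (2 had an unadjusted p under 0.05). Of the 6, 5 had a log2 difference under 0, in a range of -0.85 to 0.13. In 2 of them every SKG library lay below every WT library. Tbx21 was at 565, 519.8 and 559 CPM in WT and 501, 389 and 550.3 CPM in SKG (adjusted p = 0.902), Ifng at 260.4, 123 and 272 CPM in WT and 179, 244 and 183 CPM in SKG (adjusted p = 0.917), and Cxcr3 at 687, 762 and 729.2 CPM in WT and 737, 783 and 861 CPM in SKG (adjusted p = 0.937). Sdc1, the syndecan that marks NKT17 cells, was at 0.121, 0.191 and 1.24 CPM in WT and 0.929, 0.417 and 0.173 CPM in SKG, and Zbtb16, which encodes PLZF, at 31.8, 34 and 44.5 CPM in WT and 50, 47.1 and 41.1 CPM in SKG. The genotypes overlapped in all 5 of these genes, and none was called. The summed level of 4 markers of stage 0 iNKT cells, the earliest in the thymus, was 50.9 to 57.9 CPM in WT and 22 to 32 CPM in SKG and did not overlap. Of the 3 tested members, Egr2 and Ldhb were lower in all SKG libraries (log2 difference -1.11 and -0.94, both with an unadjusted p under 0.05) and were not called (adjusted p = 0.123 and 0.22), but Egr2 was called by DESeq2 (adjusted p = 0.0318) and without SKG replicate 1 (0.0538).

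Other cell types were looked for with lists of 7 B cell, 8 myeloid, 8 dendritic cell, 8 double-positive thymocyte, 6 thymic epithelium and 9 red cell or platelet genes, of which no member was called by edgeR (2 had an unadjusted p under 0.05, and DESeq2 called 1 thymocyte gene lower and 1 B cell gene higher). The summed B cell genes reached at most 6.04 CPM, with Pax5 and Ebf1 at 0 counts in all 6 libraries. The summed myeloid genes were at 0.764 to 9.92 CPM in WT and 0.52 to 1.67 CPM in SKG, with Csf1r, Cd14 and Itgam at 0 counts. The highest value was that of WT replicate 3. Rag2 and Dntt of the thymocyte list and 7 of the 9 red cell and platelet genes were at 0 counts. In each genotype 1 library held Xist and next to no Y-linked counts (WT replicate 1 and SKG replicate 2) and the other 2 the reverse, so this pattern was balanced between the groups.

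Zap70, the mutated gene (chromosome 1, 36818695 to 36839663 on build NCBIM37), was at 516, 569 and 605 CPM in WT and 483, 421 and 529 CPM in SKG. Its level was lower in SKG by a mean log2 difference of -0.24 (SE 0.11), the libraries of the genotypes overlapped, and the difference did not pass (edgeR adjusted p = 0.36). A point mutation is not visible in counts per gene, so this value does not check the labels.

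Of 11118 genes tested, 364 (3.27%) were called, that is, they had an adjusted p under 0.1 and a fold change of at least 1.5. These were 162 genes higher in SKG (1.46% of those tested) and 202 lower (1.82%). In 346 of the 364 the SKG libraries lay wholly above or wholly below the WT libraries, as they did in 1812 of all tested genes (16.3%), and all SKG libraries lay below all WT libraries in 965 (8.68%). The fold change was at least 4 in 94 called genes. The higher group had a mean of at least 50 counts in 289. Of the 364, 19 had 0 counts in 1 genotype and 13 had 1 to 3, and their fitted differences are not used as sizes here.

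**Figure D1:**
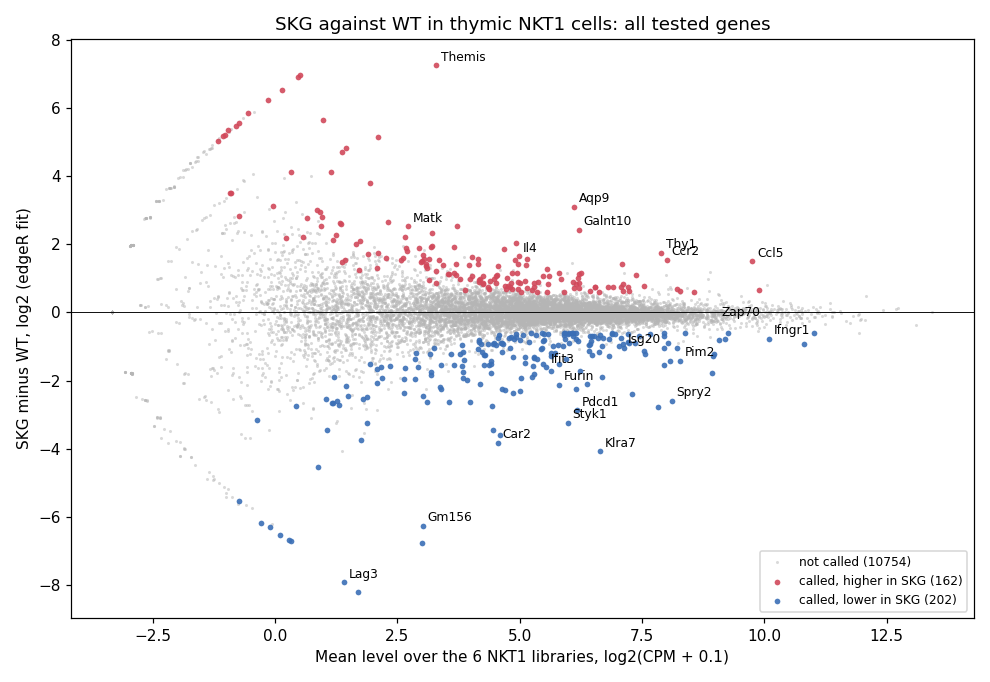
Each point is 1 of 11118 tested genes. The horizontal axis is the mean level over the 6 NKT1 libraries as log2(CPM + 0.1), and the vertical axis is SKG minus WT on the log2 scale of the edgeR fit. Red points are the 162 genes called higher in SKG and blue points the 202 called lower. The oblique arms at the left are genes with 0 counts in 1 genotype, whose fitted difference is no measure of size. Themis is labelled at the top, and Klra7, Gm156 and Lag3 toward the bottom.

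The 12 largest rises among well-covered called genes (at least 50 counts on average in the higher group, libraries separate) included genes of TCR signal transduction, cell surface receptors, a circadian repressor and enzymes. Themis, an adaptor that tunes TCR signals in thymocytes (chromosome 10, 28388166 to 28603624), had 0, 0 and 2 counts in the WT libraries and 95, 112 and 97 in the SKG libraries. In CPM it was at 0, 0 and 0.354 CPM in WT and 17.7, 23.3 and 16.8 CPM in SKG. Every SKG library stood far above every WT library, with a ratio of 183-fold (95% counting interval 50.1 to 1514), and the edgeR adjusted p was 1.07e-06.

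Galnt10, a transferase that starts O-linked glycans (chromosome 11, 57458944 to 57601016), was at 20.2, 28.8 and 21.6 CPM in WT and 120.4, 155 and 99.4 CPM in SKG, with all SKG libraries above all WT libraries (log2 difference 2.41, SE 0.20, adjusted p = 3.81e-07). Aqp9, a channel for water and glycerol (chromosome 9, 70958466 to 71016489), was at 24.4, 11.6 and 6.38 CPM in WT and 94.4, 170.0 and 108 CPM in SKG, the lowest SKG value lying well above the highest WT value (log2 difference 3.10, SE 0.45, adjusted p = 0.00148). Matk, a kinase that restrains the Src family, was at 0.966, 3.25 and 1.77 CPM in WT and 9.66, 13.1 and 10 CPM in SKG (log2 difference 2.52, SE 0.29, adjusted p = 1.94e-05). These 3 genes showed no overlap between the genotypes, and Matk remained a gene of low level in both.

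The other rises of this group were as follows. Lair1, an inhibitory receptor for collagen, was at 12.7, 8.02 and 14.5 CPM in WT and 52.6, 59.8 and 33.3 CPM in SKG (log2 difference 2.04, SE 0.48, adjusted p = 0.0199). Nr1d1, which encodes the circadian repressor REV-ERB alpha, was at 2.9, 2.29 and 6.2 CPM in WT and 12.3, 16.7 and 14 CPM in SKG (log2 difference 1.92, SE 0.28, adjusted p = 0.000266). Trpm6, a magnesium channel, was at 3.5, 4.01 and 3.9 CPM in WT and 19.1, 14.6 and 9.88 CPM in SKG (log2 difference 1.93, SE 0.27, adjusted p = 0.00013). In each the SKG libraries lay above the WT libraries. Sept8 of the septin cytoskeleton rose by a log2 difference of 2.34, Susd2 by 1.92, Nlrx1, a mitochondrial protein of the NLR family, by 1.89, and the neuropilin Nrp2 by 2.53 (adjusted p = 0.00013, 0.00241, 0.00608 and 0.0196). The call of Nrp2 was lost without SKG replicate 2 (log2 difference 2.22, adjusted p = 0.109), and that of Nlrx1 with only the 6 NKT1 libraries in the fit (log2 difference 1.91, adjusted p = 0.112). The rise of Hpse, which encodes heparanase, was less firm (log2 difference 2.21, SE 0.64, adjusted p = 0.068), since 9 of 18 alternatives ended its call, among them the omission of any library but WT replicate 2 (adjusted p = 0.129 to 0.189).

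The 12 largest falls held 3 genes of the NK receptor region of chromosome 6, Klra7, Klra1 and Gm156, which are described with that region below. Styk1, a pseudokinase of the receptor kinase family (chromosome 6, 131249162 to 131303615), lies shortly past the end of that region. It was at 91.5, 98.3 and 153 CPM in WT and 15.2, 8.12 and 12.6 CPM in SKG. The highest SKG value was less than the lowest WT value by a wide margin (log2 difference -3.24, SE 0.38, adjusted p = 2.71e-05). Car2, which encodes carbonic anhydrase 2 (chromosome 3, 14886426 to 14900769), was at 52.4, 45.6 and 32.9 CPM in WT and 4.09, 2.08 and 2.95 CPM in SKG (log2 difference -3.83, SE 0.44, adjusted p = 5.92e-05). Prnp, the prion protein gene (chromosome 2, 131735664 to 131764165), was at 55.9, 42.8 and 36 CPM in WT and 5.57, 1.87 and 3.47 CPM in SKG (log2 difference -3.61, SE 0.69, adjusted p = 0.00651). Neither gene overlapped between the genotypes, and both were under 6 CPM in SKG.

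Pdcd1, which encodes the inhibitory receptor PD-1 (chromosome 1, 95934884 to 95949130), was at 125, 139 and 118 CPM in WT and 17.8, 8.12 and 25.3 CPM in SKG (log2 difference -2.88, SE 0.25, adjusted p = 7.79e-06). The SKG values were unequal, and all lay below the WT values. Lyn, a kinase of the Src family, was at 25.6, 29 and 26.4 CPM in WT and 6.13, 3.12 and 3.64 CPM in SKG (log2 difference -2.64, SE 0.52, adjusted p = 0.00462), and Lat2, an adaptor related to LAT, at 61, 24.3 and 28.2 CPM in WT and 5.76, 4.17 and 6.76 CPM in SKG (log2 difference -2.76, SE 0.50, adjusted p = 0.00243). In both the genotypes were separate, and for Lat2 WT replicate 1 was above the other WT libraries. Actn1, which encodes the actin cross-linker alpha-actinin 1, fell by a log2 difference of -2.63 (adjusted p = 0.000139). Serpinb9b, a serpin of the granzyme inhibitor family, had a log2 difference of -3.46 (adjusted p = 0.00976), and DESeq2 did not call it. Nsg2, a protein of vesicle transport, had a log2 difference of -2.63 (adjusted p = 0.0195), and its call was lost without SKG replicate 3 (log2 difference -2.26, adjusted p = 0.106).

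**Figure D2:**
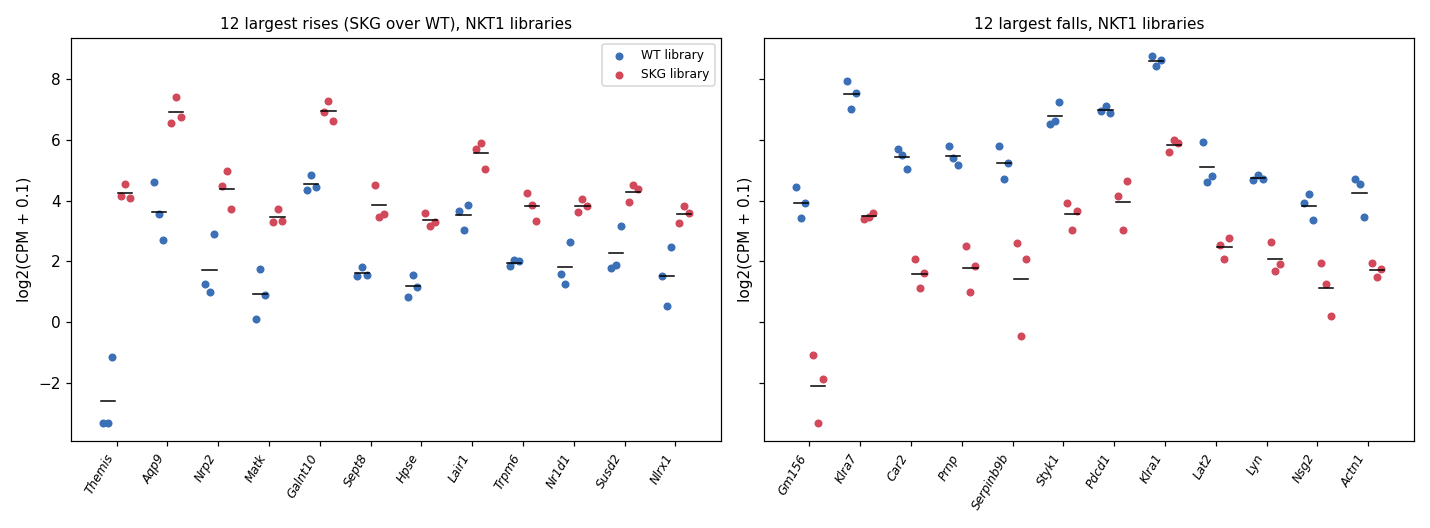
Levels of the genes with the 12 largest rises (left) and the 12 largest falls (right) in each NKT1 library, as log2(CPM + 0.1). Blue points are the 3 WT libraries, red points the 3 SKG libraries, and bars the group means on this scale. The 2 colours do not overlap in any of the 24 genes, which the choice of genes required.

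Genes induced by interferons were lower in SKG NKT1 cells. Interferons bind receptors that activate STAT factors and IRF9, and these switch on antiviral genes through promoter elements. Of 33 tested members of a list of 34 such genes, 13 fell and 0 rose, against 1.82% and 1.46% of all tested genes. All 33 had a log2 difference under 0, with a median of -0.60 and a range of -1.62 to -0.04, and the median over all tested genes was -0.01. In 23 of the 33 every SKG library lay below every WT library, against 8.68% of all tested genes. The summed level of the list was 6058, 6098 and 6450.4 CPM in WT and 4453, 4470.3 and 4494 CPM in SKG. The summed values did not overlap, and those of SKG were close together.

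Factors that carry the signal were among those that fell. Irf9, the DNA-binding partner of STAT factors (chromosome 14, 56222408 to 56228867), was at 173, 183 and 222 CPM in WT and 106, 85 and 122 CPM in SKG (log2 difference -0.88, SE 0.15, adjusted p = 0.00147). Irf7, which amplifies the response (chromosome 7, 148448605 to 148452380), was at 330.0, 314 and 369 CPM in WT and 165, 209 and 173 CPM in SKG (log2 difference -0.89, SE 0.14, adjusted p = 0.000578). The genotypes did not overlap in either. Stat2 was at 59.6, 30.4 and 26 CPM in WT and 29.7, 30.4 and 18.9 CPM in SKG and Irf1 at 431, 385 and 501 CPM in WT and 311, 347 and 385 CPM in SKG, the libraries overlapped for both, and neither passed (adjusted p = 0.287 and 0.125).

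Among the effectors, Isg20, an exonuclease for RNA (chromosome 7, 86058310 to 86065248), was at 184, 177 and 202 CPM in WT and 88.4, 79.4 and 106 CPM in SKG (log2 difference -1.04, SE 0.14, adjusted p = 0.000114). Ifit3, a member of the family that binds viral RNA (chromosome 19, 34658021 to 34663221), was at 71.1, 72.6 and 66.1 CPM in WT and 29.9, 19 and 19.4 CPM in SKG (log2 difference -1.62, SE 0.29, adjusted p = 0.00201). Isg15, the ubiquitin-like modifier (chromosome 4, 155573533 to 155574927), was at 36.5, 34.8 and 40.7 CPM in WT and 19.9, 18.5 and 16.1 CPM in SKG (log2 difference -1.04, SE 0.24, adjusted p = 0.0195). The largest difference of the list was that of Ifit3, and no SKG library reached a WT library in any of these genes. Usp18, the protease that removes ISG15 and restrains the receptor (chromosome 6, 121195924 to 121220934), was at 41.8, 64 and 60.9 CPM in WT and 30.5, 18.3 and 18 CPM in SKG (log2 difference -1.31, SE 0.26, adjusted p = 0.00568).

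Ifit1 (log2 difference -0.84), Xaf1, a partner of the caspase inhibitor XIAP (-0.91), and Zbp1, a sensor of Z-form nucleic acid (-0.77), fell too. So did the guanylate-binding proteins Gbp2 (-0.63), Gbp3 (-1.04) and Gbp6 (-0.94) and the immunity-related GTPase Igtp (-0.60), which act on intracellular pathogens and respond to interferon gamma as well. The adjusted p of these 7 genes ranged from 0.00214 (Xaf1) to 0.0343 (Igtp). Of them, Gbp3 was lost without SKG replicate 1 or 3 (adjusted p = 0.136 and 0.132), Gbp6 without SKG replicate 3 (0.122), Zbp1 without SKG replicate 1 (0.100398), Igtp without WT replicate 2 or SKG replicate 3 (0.141 and 0.179), and Gbp2 fell short of the fold minimum without WT replicate 3 (log2 difference -0.48). The GTPase Irgm1 and the peptide transporter Tap1 had an adjusted p under 0.1 (0.0623 and 0.0502) but a log2 difference of -0.42 and -0.44, less than the fold change required. Mx1 (4.1, 11.5 and 9.03 CPM in WT and 5.95, 12.5 and 5.37 CPM in SKG) and Ifit2 (40.4, 43 and 27.1 CPM in WT and 25.3, 40.2 and 31 CPM in SKG) overlapped between the genotypes and did not pass. Psmb8, an immunoproteasome subunit and the highest of the members that were not called, had a log2 difference of -0.25 (adjusted p = 0.306).

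Among the genes of the ligand and the receptors, Ifng did not pass (log2 difference -0.11), nor did the type I receptor chains Ifnar1 (-0.09) and Ifnar2 (0.15). Ifngr2, the signalling chain for interferon gamma, had 14 counts in WT and 8 in SKG over 3 libraries each. Ifngr1, the chain that binds interferon gamma (chromosome 10, 19311755 to 19330035), was at 1375, 1307 and 1466 CPM in WT and 804, 776 and 830.4 CPM in SKG and fell (log2 difference -0.78, SE 0.11, adjusted p = 0.000188). The number of list members that fell was 11 to 13 when any 1 library was left out, 11 with only the 6 NKT1 libraries in the fit and 13 with DESeq2, and no member rose in any of these fits. It was 11 in the 4 libraries with Y-linked counts alone, and 8 in the 2 against 2 libraries whose titles share a number.

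**Figure D3:**
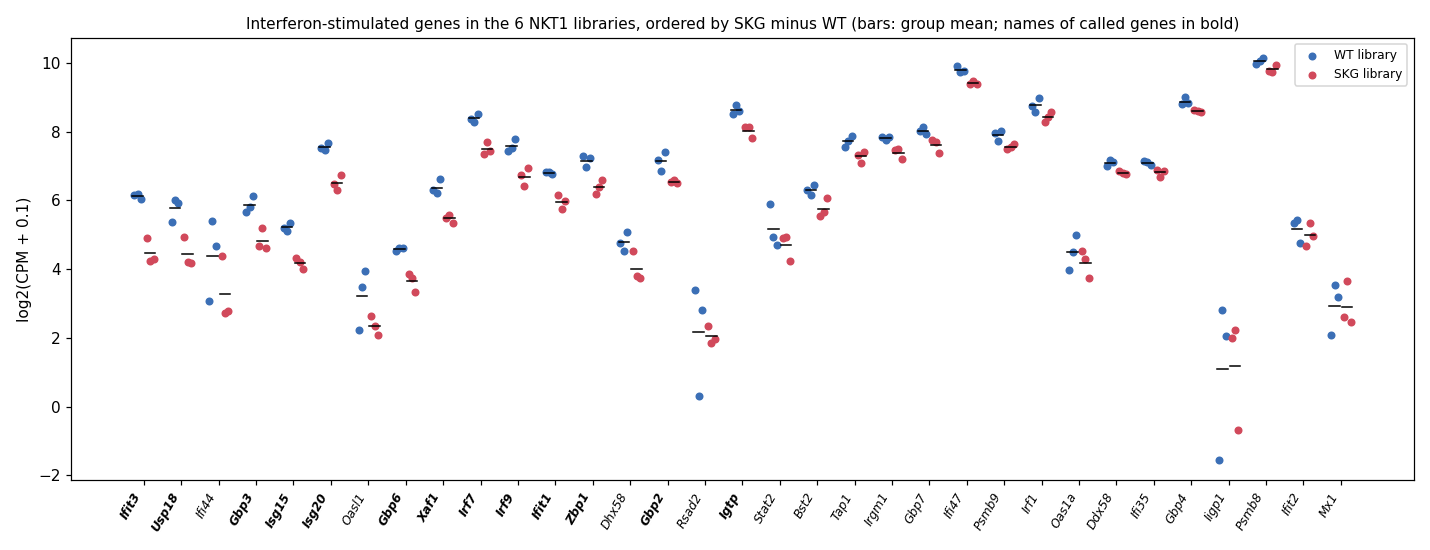
Levels of the 33 tested interferon-stimulated genes in each NKT1 library, as log2(CPM + 0.1), ordered from the largest fall to the smallest difference. Blue points are WT libraries, red points SKG libraries, bars are group means, and the 13 names in bold are the genes that fell. The red points lie below the blue points in 23 genes, and no gene has the reverse order.

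Promoters of members that moved together were examined for the letters GAAANNGAAA, a core held by some interferon-regulated promoters and not by all. It was looked for on either strand in the 200 bases before each RefSeq start site (build GRCm38.p6). Of the 13 members that fell, 10 had a promoter in the RefSeq table used here, and 6 of these held it (60%), as did 5 of 16 members that were not called (31.2%). Among the genes with a promoter in that table, 716 of 27025 held it (2.65%), and among tested genes 198 of 8056 (2.46%). Over all called genes it was found in 9 of 145 that fell (6.21%) and 3 of 125 that rose (2.4%). A match describes letters and not a site in use, and the list was made of genes known to respond. The sequences of 3 members that fell are shown to let the element be seen beside the values, 5′ to 3′ on the strand of the gene and ending at the base before the start, with the matches in capitals. In Isg15 the 3 matches overlap and read forward, and in Ifit1 and Ifit3 the 2 matches read on the opposite strand, as TTTCNNTTTC. Isg20 and Irf7, which fell as well, had no match in this window.
Isg15 (chr4:156200819-156201018, minus strand): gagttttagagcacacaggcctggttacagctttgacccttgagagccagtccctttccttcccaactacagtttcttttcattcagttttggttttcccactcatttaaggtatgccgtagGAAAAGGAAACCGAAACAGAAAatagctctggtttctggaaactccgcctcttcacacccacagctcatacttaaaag
Ifit1 (chr19:34640689-34640888, plus strand): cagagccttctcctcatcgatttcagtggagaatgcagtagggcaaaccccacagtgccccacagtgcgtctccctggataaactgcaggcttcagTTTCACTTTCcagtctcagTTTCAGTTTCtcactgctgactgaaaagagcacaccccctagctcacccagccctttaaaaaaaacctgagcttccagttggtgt
Ifit3 (chr19:34583329-34583528, plus strand): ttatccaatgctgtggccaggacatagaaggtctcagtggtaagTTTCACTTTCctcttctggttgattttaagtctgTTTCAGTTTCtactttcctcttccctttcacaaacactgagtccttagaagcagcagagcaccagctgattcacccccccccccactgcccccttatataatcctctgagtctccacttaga

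NK receptor genes were the other group that fell together, and most of them lie side by side on chromosome 6. The Ly49 receptors, encoded by the Klra genes, and the CD94 and NKG2 receptors, encoded by Klrd1 and the Klrc genes, bind class I molecules and mostly inhibit NK cells. Against 1.82% of all tested genes that fell, 6 of 6 tested Klra genes fell, as did 6 of 17 tested genes of the CD94, NKG2 and related list. Neither list had a rise. The study picked some of these genes from the same libraries, so their direction here is not independent evidence. Within the interval from 128559245 to 131197380 of chromosome 6, the run of neighbouring members of these lists, 12 of 28 tested genes fell (42.9%) and 0 rose. In the rest of chromosome 6, 10 of 496 tested genes fell (2.02%), among them Styk1 shortly past the interval, and 6 rose. Of the 12, 11 were receptors of the lists, out of 17 tested there. The interval was set by these members, and of its 11 other tested genes 1 fell (9.09%), Gm156, a predicted gene between Klri2 and Klra5, with a median log2 difference of -0.17 over the 11.

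Klre1, a partner chain of inhibitory and activating lectin receptors (chromosome 6, 129527911 to 129535842), was at 148, 103 and 102 CPM in WT and 26.4, 23.7 and 23.9 CPM in SKG (log2 difference -2.26, SE 0.25, adjusted p = 7.74e-05). Klrc1, which encodes NKG2A (chromosome 6, 129616033 to 129628991), was at 178, 135 and 174 CPM in WT and 52.2, 41.4 and 38.5 CPM in SKG (log2 difference -1.88, SE 0.27, adjusted p = 0.000356), and Klrc2, which encodes NKG2C (chromosome 6, 129597514 to 129610707), at 65.2, 47.7 and 66.6 CPM in WT and 17.8, 17.7 and 12.5 CPM in SKG (log2 difference -1.90, SE 0.35, adjusted p = 0.00341). In each case all SKG libraries lay below all WT libraries. Klrb1f of the NKR-P1 family (chromosome 6, 128995919 to 129007489) was at 83.3, 69.5 and 74.9 CPM in WT and 18, 21.7 and 29.5 CPM in SKG (log2 difference -1.72, SE 0.26, adjusted p = 0.000339). Gm156 (chromosome 6, 129716586 to 129734288) had 179, 56 and 86 counts in WT and 2, 0 and 1 in SKG, a ratio of 89.1-fold (95% counting interval 30.2 to 434). Klra5 (chromosome 6, 129849014 to 129867668), the most abundant Klra gene, was at 853, 619.8 and 801 CPM in WT and 253, 196 and 215 CPM in SKG (log2 difference -1.78, SE 0.25, adjusted p = 0.000874), Klra7 at 248, 129 and 188 CPM in WT and 10.4, 11 and 12 CPM in SKG (log2 difference -4.08, SE 0.33, adjusted p = 7.81e-07) and Klra1 at 435, 348 and 399.8 CPM in WT and 48.1, 63.7 and 59.1 CPM in SKG (log2 difference -2.79, SE 0.38, adjusted p = 0.000862). The genotypes were apart in all of these genes, and among the Klra genes the difference was largest in Klra7. Klra genes share near-identical stretches and overlap in the annotation, so the value of a single one is uncertain. The 6 that fell may thus not be 6 independent results. Klra3, Klra9 and Klra10, the others that fell, had log2 differences of -1.21, -1.28 and -1.34, and the call of Klra10 was lost without WT replicate 2 or 3 or SKG replicate 1 or 2 (adjusted p = 0.103 to 0.167).

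Members of the same lists inside and outside the region did not all pass. Klrd1 had a log2 difference of -0.73 (adjusted p = 0.301) and Klrk1, which encodes NKG2D and was the most abundant member that was not called, of -0.43 (adjusted p = 0.592). Ncr1, which encodes the activating receptor NKp46 and lies elsewhere (chromosome 7, 4289326 to 4296766), was at 189, 97.8 and 115 CPM in WT and 24.9, 27.1 and 40.9 CPM in SKG (log2 difference -2.11, SE 0.28, adjusted p = 0.000398). Klrg1, Cd226 and Slamf7 were higher in every SKG library than in every WT library (log2 difference 0.95, 0.34 and 0.26) and were not called (adjusted p = 0.6, 0.145 and 0.884), with Klrg1 at under 10 CPM in all of them. Of 6 adaptors that transmit these receptors' signals, Fcer1g alone was called (log2 difference -1.04, SE 0.31, adjusted p = 0.099), but 14 of 19 alternatives did not call it, DESeq2 and the omission of any library but WT replicate 2 among them (adjusted p = 0.155 to 0.305). Tyrobp, which encodes DAP12, had a log2 difference of -0.85 (adjusted p = 0.133). The summed level of the Klra list was 1846 to 2429 CPM in WT and 597 to 685 CPM in SKG, and that of the CD94, NKG2 and related list 2230.5 to 2971 and 1738 to 1879 CPM. In bulk samples fewer cells that express a gene and less RNA per cell cannot be told apart.

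Of 14 tested inhibitory receptors of T cells, 4 fell and 1, Lair1, rose, against 1.82% and 1.46% of all tested genes. Beside Pdcd1, Lag3, a receptor for class II molecules (chromosome 6, 124854379 to 124861723), had 64, 27 and 14 counts in the WT libraries and 0 in all 3 SKG libraries, and was at least 29.1-fold lower in SKG against a floor of 3 counts over the group (adjusted p = 0.000209). Tigit, which binds nectin-like ligands, was at 42.3, 32.8 and 48 CPM in WT and 12.1, 4.37 and 9.18 CPM in SKG (log2 difference -2.26, SE 0.52, adjusted p = 0.0198), and Cd101 at 95.1, 61.5 and 61.3 CPM in WT and 35.1, 40.2 and 37.4 CPM in SKG (log2 difference -0.95, SE 0.28, adjusted p = 0.0786). The libraries were separate in all 4. Without SKG replicate 2 the number called lower was 2, since Tigit then had an adjusted p of 0.11 and Cd101 of 0.183. Cd101 was lost as well without WT replicate 1 or SKG replicate 1 or 3 (adjusted p = 0.201 to 0.279). Cd6, the most abundant member that was not called, had a log2 difference of -0.5 (adjusted p = 0.0403), under the fold minimum, though it was called without WT replicate 1 (-0.60, adjusted p = 0.0197) and with the block by title number (-0.63, adjusted p = 0.00273), and Cd5, whose level follows TCR signalling, of -0.51 (adjusted p = 0.158).

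Counts of called feedback and target genes of TCR signals were small, beside 1.82% of all tested genes called lower and 1.46% called higher. Of 15 tested genes of the Sprouty, Spred and DUSP families, which damp the ERK pathway, 1 fell and 1 rose. Spry2 (chromosome 14, 106291166 to 106296036) was at 475, 342 and 598 CPM in WT and 101, 68.5 and 64.6 CPM in SKG, with every SKG library far below every WT library (log2 difference -2.59, SE 0.30, adjusted p = 0.000124). Dusp6, a phosphatase of ERK, was at 40.8, 51.6 and 50.8 CPM in WT and 92.5, 90.2 and 80 CPM in SKG (log2 difference 0.88, SE 0.26, adjusted p = 0.0827), but 9 of 19 alternatives did not call it, the omission of any 1 library among them (adjusted p = 0.108 to 0.209). Of 29 tested genes that TCR signals induce early, 2 fell and 0 rose. Id3, an inhibitor of E proteins (chromosome 4, 135699412 to 135701670), was at 23.4, 24.1 and 25.5 CPM in WT and 6.32, 4.17 and 7.62 CPM in SKG (log2 difference -1.99, SE 0.29, adjusted p = 0.000808), and Tnfrsf9, the co-stimulatory receptor 4-1BB (chromosome 4, 150288671 to 150320211), at 34.6, 33.4 and 60.6 CPM in WT and 5.57, 10 and 11.1 CPM in SKG (log2 difference -2.27, SE 0.30, adjusted p = 8.69e-05). Both were apart in all libraries. Members that were not called lay on both sides of 0, with Egr2 at a log2 difference of -1.11 (adjusted p = 0.123) and Nr4a1 at 2.69 (adjusted p = 0.215), and 0 of 10 AP-1 and BATF factors were called by edgeR or DESeq2, with 0 at an unadjusted p under 0.05.

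Of 51 tested genes of proximal TCR signalling, 6 rose and 2 fell, against 1.46% and 1.82% of all tested genes. The median log2 difference of the list was -0.01. Beside Themis, Thy1, a surface glycoprotein of T cells (chromosome 9, 43851467 to 43856662), was at 173, 71.4 and 81.5 CPM in WT and 347, 389.9 and 358 CPM in SKG (log2 difference 1.74, SE 0.31, adjusted p = 0.00614). Pik3cd, the catalytic subunit of the PI3 kinase of leukocytes, was at 319, 278 and 301 CPM in WT and 474, 447 and 436 CPM in SKG (log2 difference 0.60, SE 0.10, adjusted p = 0.00169), and Rasgrp2, an exchange factor for RAP1, at 108, 85.5 and 102 CPM in WT and 171, 187 and 172 CPM in SKG (log2 difference 0.84, SE 0.15, adjusted p = 0.00169). The 3 genes were separate in all libraries, and the folds of the latter pair were close to the minimum for a call. With only the 6 NKT1 libraries in the fit the call of Thy1 was lost (log2 difference 1.76, adjusted p = 0.125). Without SKG replicate 1 or WT replicate 2 the fold of Pik3cd was under that minimum (log2 difference 0.58 and 0.57). Trat1, an adaptor bound to the TCR (1.00), and Rasgrp1, an activator of RAS (0.61), rose too (adjusted p = 0.0124 and 0.0535). Rasgrp1 was lost without WT replicate 3 or SKG replicate 2 or 3 (adjusted p = 0.147 to 0.19). The 2 that fell were Lat2 and Tec, a Tec family kinase (-1.18, adjusted p = 0.0298), the latter lost without WT replicate 3 or SKG replicate 1 or 2 (adjusted p = 0.117 to 0.203). The CD3 chains, the kinase Lck and the adaptors Lat and Lcp2 were not called, with log2 differences of -0.23 (Cd3d), 0.02 (Cd3e), -0.13 (Cd3g), -0.08 (Lck), 0.54 (Lat) and -0.03 (Lcp2). Lat had an adjusted p of 0.00479 and fell short of the fold minimum. Of 27 ubiquitin ligases and phosphatases that restrain the TCR, Ubash3b alone was called (log2 difference -0.82, SE 0.21, adjusted p = 0.034). Its libraries overlapped, and the call was lost without WT replicate 1 or SKG replicate 2 (adjusted p = 0.201 and 0.202).

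Of 19 tested cytokines and chemokines, 3 rose and 1 fell, against 1.46% and 1.82% of all tested genes. Il4, the signature cytokine of NKT2 cells, was at 7.73, 13 and 25.3 CPM in WT and 39.2, 47.1 and 56.1 CPM in SKG (log2 difference 1.65, SE 0.32, adjusted p = 0.00614), and the lowest SKG value was above the highest WT value. Ccl5, a chemokine made by NKT1 cells and cytotoxic cells (chromosome 11, 83339280 to 83344020), was at 637, 274 and 444 CPM in WT and 1229.8, 1393 and 1210.2 CPM in SKG (log2 difference 1.5, SE 0.30, adjusted p = 0.0176). Its call was lost with only the 6 NKT1 libraries in the fit. Csf1, the growth factor of macrophages (chromosome 3, 107543966 to 107563387), was at 65.4, 59.8 and 57 CPM in WT and 19.7, 19.4 and 13.2 CPM in SKG (log2 difference -1.80, SE 0.34, adjusted p = 0.0044). The values of these 3 genes did not overlap. Il13 was at 0, 0 and 1 counts in WT and 3, 4 and 6 in SKG, a ratio of 15.6-fold (95% counting interval 2.35 to 664), but 8 of 16 alternatives did not call it, the omission of WT replicate 1 or 2 or SKG replicate 2 or 3 among them (adjusted p = 0.135 to 0.198). The summed level of the 6 NKT2 markers was 463 to 645 CPM in WT and 548 to 559.8 CPM in SKG, Il4 and Il13 were the 2 called, and Gata3 had a log2 difference of -0.22 (adjusted p = 0.479). Ltb, the most abundant member that was not called, had a log2 difference of -0.39 (adjusted p = 0.0785), under the fold minimum.

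Receptors that guide migration were called in both directions, 4 of 18 tested members higher and 1 lower, against 1.46% and 1.82% of all tested genes. Ccr2, a receptor for inflammatory chemokines (chromosome 9, 124016689 to 124028296), was at 169.7, 101 and 123 CPM in WT and 383, 454 and 318 CPM in SKG (log2 difference 1.55, SE 0.21, adjusted p = 0.000339), and S1pr1, the sphingosine 1-phosphate receptor needed to leave the thymus (chromosome 3, 115413351 to 115417973), at 11.1, 7.64 and 14.3 CPM in WT and 47.2, 43.5 and 30 CPM in SKG (log2 difference 1.86, SE 0.37, adjusted p = 0.00651). Ccr9, the receptor for the thymic and gut chemokine CCL25, had 0, 4 and 0 counts in WT and 71, 34 and 24 in SKG (adjusted p = 0.0269). In these genes every SKG library was above every WT library, and the call of Ccr9 was lost without WT replicate 1 or SKG replicate 1 (adjusted p = 0.107 and 0.101). Ptger4, a prostaglandin receptor, rose by 0.73 (adjusted p = 0.0304), but not without WT replicate 2 or SKG replicate 3 (adjusted p = 0.103 and 0.138). Gpr18, a lipid receptor, was called at a log2 difference of -0.89 (adjusted p = 0.0198), and the call was lost without SKG replicate 1 or 2 (adjusted p = 0.113 and 0.104). Cxcr6, the most abundant member that was not called, had a log2 difference of 0.48 (adjusted p = 0.0298), under the fold minimum.

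Of 21 tested integrins and adhesion genes 4 were called higher, Nrp2 among them, and 2 lower, against 1.46% and 1.82% of all tested genes. Itgb7, a partner of Itga4 and Itgae in gut homing, was at 795, 634 and 785 CPM in WT and 1065, 1232 and 1193 CPM in SKG (log2 difference 0.66, SE 0.12, adjusted p = 0.00199), and without WT replicate 2 its fold was under the minimum (log2 difference 0.58). Itgb3 was at 3.98, 6.49 and 0.886 CPM in WT and 12.6, 14 and 10 CPM in SKG (log2 difference 1.69, SE 0.39, adjusted p = 0.0248) and Itgav, which pairs with it, at 4.83, 4.01 and 6.02 CPM in WT and 9.66, 14 and 12.8 CPM in SKG (log2 difference 1.29, SE 0.39, adjusted p = 0.0811). The genotypes were separate in all 3, though Itgb3 and Itgav were at low levels, and the call of Itgav was lost without any 1 library but WT replicate 3 (adjusted p = 0.100398 to 0.216). With only the 6 NKT1 libraries in the fit neither was called. Lower values were called for Itga4 (-1.41, adjusted p = 0.0767) and the neuropilin Nrp1 (-1.54, adjusted p = 0.0349). Itga4 was lost without WT replicate 1 (log2 difference -0.52, adjusted p = 0.56) or any 1 SKG library (adjusted p = 0.162 to 0.283). The call of Nrp1 was lost without WT replicate 1, SKG replicate 1 or SKG replicate 3 (adjusted p = 0.118 to 0.172). Of the integrins that mark resident cells, Itgae had a log2 difference of -0.07 and the gate marker Itga1 of -0.08, and neither was called.

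Of 30 tested genes on the list of cytokine receptors, which also holds Csf1, 3 fell (Csf1, Ifngr1 and Il2ra) and 1 rose (Il6ra). The shares over all tested genes were 1.82% and 1.46%. Il2ra, the inducible IL-2 receptor chain, was at 25.7, 31.9 and 25.3 CPM in WT and 13.2, 7.71 and 13.7 CPM in SKG (log2 difference -1.25, SE 0.32, adjusted p = 0.0367), and its call was lost without WT replicate 2, SKG replicate 1 or SKG replicate 2 (adjusted p = 0.101 to 0.179). Il6ra, the IL-6 receptor, was at 2.66, 3.82 and 7.79 CPM in WT and 9.48, 13.3 and 13 CPM in SKG (log2 difference 1.37, SE 0.31, adjusted p = 0.0183), and was not called with only the 6 NKT1 libraries in the fit. The values were separate for both receptors. The shared chain Il2rb was below WT in every SKG library with a log2 difference of -0.33 and was not called (adjusted p = 0.115).

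Of 22 tested JAK, STAT, SOCS and PIM genes 2 rose and 2 fell, against 1.46% and 1.82% of all tested genes. Pim2, a survival kinase induced by cytokines (chromosome X, 7455388 to 7460558), was at 478, 412 and 465 CPM in WT and 166, 190.2 and 151 CPM in SKG, with little spread within either genotype (log2 difference -1.42, SE 0.13, adjusted p = 7.81e-07). The inducible feedback inhibitor Socs2 was at 70.4, 68.6 and 84.7 CPM in WT and 205, 216 and 176 CPM in SKG (log2 difference 1.42, SE 0.32, adjusted p = 0.0246) and Cish at 104, 77.1 and 88 CPM in WT and 146, 146 and 162 CPM in SKG (log2 difference 0.76, SE 0.21, adjusted p = 0.0502). All SKG libraries were above the WT libraries in both, and the call of Cish was lost without any 1 library but WT replicate 1 (adjusted p = 0.104 to 0.157). Socs3, another inhibitor of the family, was at 74.7, 29.6 and 73.2 CPM in WT and 16.7, 32.1 and 19.9 CPM in SKG and overlapped (log2 difference -1.38, SE 0.30, adjusted p = 0.0193), and its call was lost with only the 6 NKT1 libraries in the fit. Of 14 tested BCL-2 family genes, 1 rose and 1 fell, against the same shares of all tested genes. Bcl2, the survival gene that names the family and its most abundant member that was not called, was at 353, 275 and 310.2 CPM in WT and 601, 599 and 641 CPM in SKG with the libraries separate (log2 difference 0.97, SE 0.37, adjusted p = 0.242). It was called higher with only the 6 NKT1 libraries in the fit, by edgeR (log2 difference 0.99, adjusted p = 0.000536) and by DESeq2. Bcl2l1, which encodes the survival protein BCL-XL, rose (55.3, 42.2 and 55.4 CPM in WT and 84.5, 97.1 and 92.7 CPM in SKG, log2 difference 0.84, adjusted p = 0.00781). Bcl2a1d fell by a log2 difference of -0.93 (adjusted p = 0.016), but not without SKG replicate 2 (adjusted p = 0.117), and it shares reads with near-identical copies.

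Of 31 tested lineage transcription factors 2 were called higher and 4 lower, against 1.46% and 1.82% of all tested genes. Runx1 was at 10.9, 11.8 and 11.5 CPM in WT and 16.9, 19.6 and 17.8 CPM in SKG (log2 difference 0.67, SE 0.19, adjusted p = 0.0725) and Rora at 15.3, 17.4 and 14.5 CPM in WT and 22.5, 31.9 and 21.5 CPM in SKG (log2 difference 0.68, SE 0.20, adjusted p = 0.0827). Both were separate from WT in all libraries and neither was firm. Runx1 was lost without any 1 library (adjusted p = 0.103 to 0.193), and Rora without WT replicate 1 or 3 or SKG replicate 1 or 2 (adjusted p = 0.108 to 0.349). Beside Id3, Irf8, a factor of myeloid and B cells that effector T cells also express, was at 71.7, 71 and 76.2 CPM in WT and 36.4, 25.4 and 33.6 CPM in SKG (log2 difference -1.20, SE 0.27, adjusted p = 0.0165). Ikzf2, which encodes Helios, was at 30.9, 38 and 29.2 CPM in WT and 5.76, 16.5 and 6.58 CPM in SKG (log2 difference -1.78, SE 0.40, adjusted p = 0.0197), and Ikzf3, which encodes Aiolos, at 261, 359 and 293 CPM in WT and 223, 139 and 207 CPM in SKG (log2 difference -0.68, SE 0.16, adjusted p = 0.0218). These calls were lost for Irf8 without SKG replicate 2 (adjusted p = 0.113), for Ikzf2 without SKG replicate 1 or 3 (0.111 and 0.108) and for Ikzf3 without WT replicate 2 or SKG replicate 2 (0.131 and 0.151).

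The other lists had at most 2 called members each, beside 1.46% of all tested genes called higher and 1.82% called lower. None of 21 glycolysis genes and none of 15 heat shock and stress genes was called by edgeR or DESeq2, with 5 and 1 at an unadjusted p under 0.05. Of 37 cell cycle genes 2 were called lower, the helicase subunit Mcm2 (log2 difference -0.62, SE 0.13, adjusted p = 0.0098) and Aurka (-1.21, adjusted p = 0.0931), and 11 of 19 alternatives ended the call of Aurka, whose libraries overlapped, without WT replicate 1 or 3 or SKG replicate 1 or 3 among them (adjusted p = 0.185 to 0.336). Without WT replicate 2 or 3 or SKG replicate 3 the fold of Mcm2 was under the minimum (log2 difference -0.58 to -0.49). Of 22 sterol synthesis genes Mvd, a decarboxylase of the mevalonate pathway, rose (log2 difference 0.86, SE 0.16, adjusted p = 0.00392). Of 14 genes of cytotoxic granules and death ligands, Serpinb9, the inhibitor of granzyme B, alone was called (log2 difference -0.63, SE 0.20, adjusted p = 0.0983), but 13 of 19 alternatives did not call it, the omission of any library but WT replicate 2 among them (adjusted p = 0.194 to 0.287). Gzma, Gzmb and Prf1 had log2 differences of -0.47, 0.79 and -0.33 (adjusted p = 0.606, 0.498 and 0.691).

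**Figure D4:**
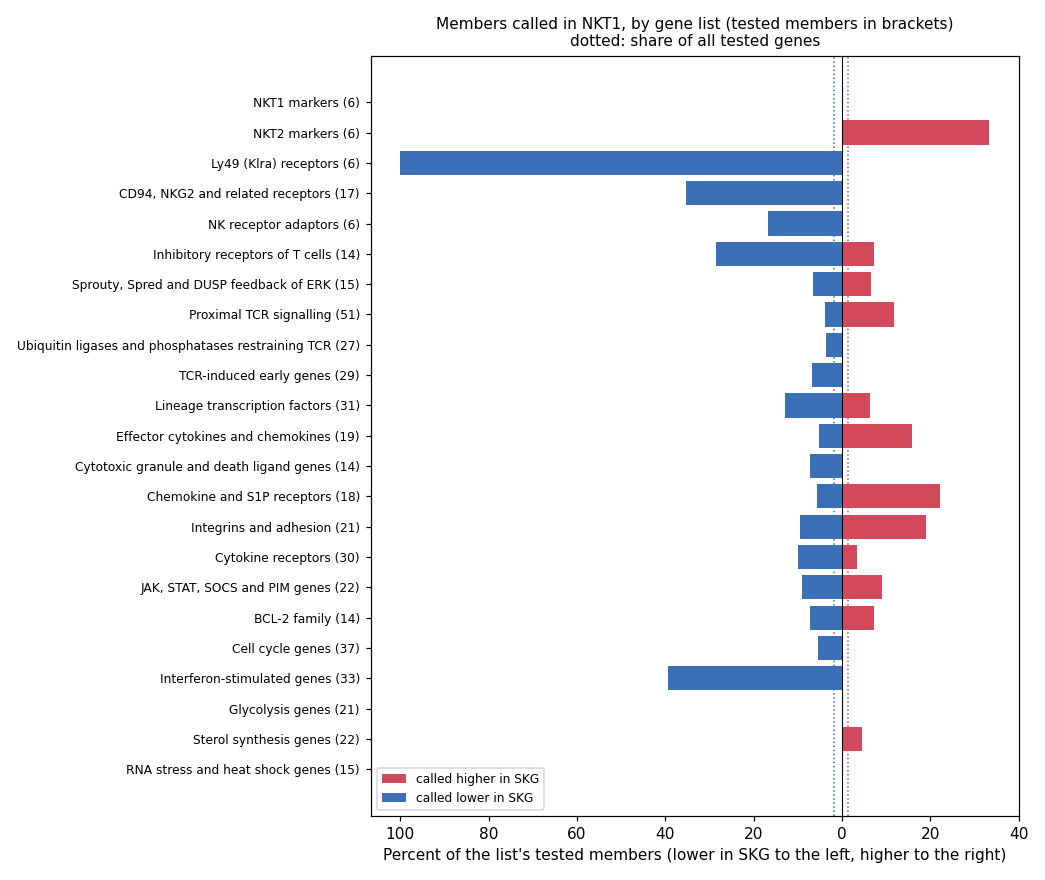
Share of the tested members of each gene list that were called in NKT1, in percent, with members higher in SKG to the right in red and members lower in SKG to the left in blue. The number tested is in brackets, and the dotted lines are the shares of all tested genes, 1.46% and 1.82%. The Ly49 list stands at 100% lower, the interferon-stimulated list has 13 of 33 members lower, and the glycolysis, heat shock and NKT1 marker lists have no bar.

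The SKG difference of NKT1 cells was set against that of the other subsets by a test of the difference between the differences in the same fit. In NKT2 cells 3.9% of tested genes were higher and 4.05% lower in SKG by the same rule, and in NKT17 cells 3.83% and 4.54%. These comparisons share no library with that of NKT1. The libraries of the 3 subsets with the same genotype and title number had the same Xist or Y-linked pattern in all 6 such sets and may come from the same source, which the fit did not use. With the source as a block, chosen after the data were seen, 131 of the genes called in NKT1 were unlike NKT2 and 127 unlike NKT17, 115 and 112 of them shared with the counts below, and of the named genes that differed Ikzf2 alone no longer did (from NKT17, adjusted p = 0.127). The SKG difference in NKT1 was unlike that in NKT2 in 4.13% of tested genes and unlike that in NKT17 in 4.52%, at an adjusted p under 0.1. Of the 364 genes called in NKT1, 118 were unlike NKT2, 117 unlike NKT17 and 66 unlike both. A gene called in NKT1 is already one with a large difference there, so these shares are a description.

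Pim2 was among the genes with the smallest adjusted p against both subsets. It fell in NKT1 (log2 difference -1.42) while its log2 difference was 0.45 in NKT2 and 0.68 in NKT17 (adjusted p of the difference 1.45e-06 and 7.71e-07). Furin, a protease that activates proproteins (chromosome 7, 87533471 to 87550322), was at 90.3, 93 and 90.2 CPM in WT and 21, 21.2 and 20.1 CPM in SKG in NKT1 (log2 difference -2.13, SE 0.21, adjusted p = 2.35e-06). It had a log2 difference of 0.07 in NKT2 and rose by 0.92 in NKT17 (adjusted p of the difference 0.00033 and 3.72e-06). Il2ra fell in NKT1 and rose in NKT2 by a log2 difference of 4.42 (adjusted p of the difference 2.99e-06). Dtx1, an E3 ligase tied to Notch, was at 50.7, 21.8 and 21.1 CPM in WT and 78.4, 64.6 and 53.7 CPM in SKG in NKT1 (log2 difference 1.06, SE 0.25, adjusted p = 0.0203) and rose far more in NKT2 (log2 difference 5.94, adjusted p of the difference 5.86e-06). Its call in NKT1 was lost without SKG replicate 1 (adjusted p = 0.109) and with only the 6 NKT1 libraries in the fit (0.223). Neurl3, an E3 ligase gene within 1 Mb of Zap70 (chromosome 1, 36321447 to 36330270), was at 187, 149.9 and 185 CPM in WT and 82.3, 78.9 and 102 CPM in SKG in NKT1 (log2 difference -0.99, SE 0.25, adjusted p = 0.036) and rose in NKT17 (log2 difference 3.79, adjusted p of the difference 6.01e-06). Its call in NKT1 was lost without WT replicate 1, SKG replicate 1 or SKG replicate 2 (adjusted p = 0.103 to 0.169). It was the only called gene among 53 tested genes within 5 Mb of Zap70 (1.89%). This is near the share of all genes with a position, of which 1.83% were called lower and 1.48% higher.

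Several genes moved in opposite directions. Il4 rose in NKT1 (log2 difference 1.65) and had a log2 difference of -0.60 in NKT2 and -1.06 in NKT17, where it fell (adjusted p of the difference 0.00542 and 0.00222). Itgb3 and Nrp2 rose in NKT1 and fell in NKT2 (log2 difference -2.40 and -2.58, adjusted p of the difference 0.000102 and 0.00107). Klrb1f fell in NKT1 and rose in NKT2 (log2 difference 0.93, adjusted p of the difference 0.000473). Galnt10 rose in both NKT1 and NKT2, by less in NKT2 (0.89, adjusted p of the difference 0.00151), and Matk rose in NKT1 alone of the 3 subsets (-0.55 in NKT2 and 0.21 in NKT17, adjusted p of the difference 1.24e-05 and 0.000466).

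Of the 33 tested members of the interferon-stimulated list, 3 were lower and 0 higher in NKT2 (median log2 difference -0.22). In NKT17 11 were lower and 0 higher (median -0.58). The shares of all tested genes were 4.05% lower and 3.9% higher in NKT2, and 4.54% and 3.83% in NKT17. The difference from NKT2 passed in 8 tested members and that from NKT17 in 3, against 4.13% and 4.52% of all tested genes. For Irf7 and Isg20 both passed. Irf7 had a log2 difference of -0.89 in NKT1, 0.01 in NKT2 and -0.08 in NKT17 (adjusted p of the difference 0.0119 and 0.0277), and Isg20 of -1.04, -0.17 and -0.03 (0.0146 and 0.00612). For Irf9, Ifit1 and Gbp6 the difference from NKT2 passed (0.0916, 0.0305 and 0.0533) and that from NKT17 did not. The others were Ifi35, Ifi47 and Gbp4 against NKT2 (0.0616, 0.0158 and 0.0797) and Ifit2 against NKT17 (0.0125), none of them called in NKT1. The 6 Klra genes had a median log2 difference of -1.56 in NKT1 and of -1.81 in NKT2, where 5 of them fell as well, and the difference from NKT2 passed in 0 of the 6. Their summed level was at most 87.7 CPM in any NKT2 library and 2.61 CPM in any NKT17 library. Pdcd1, Spry2 and Id3 fell in all 3 subsets, with log2 differences in NKT2 and NKT17 of -2.66 and -3.38 for Pdcd1, -4.41 and -4.12 for Spry2, and -2.62 and -3.94 for Id3.

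**Figure D5:**
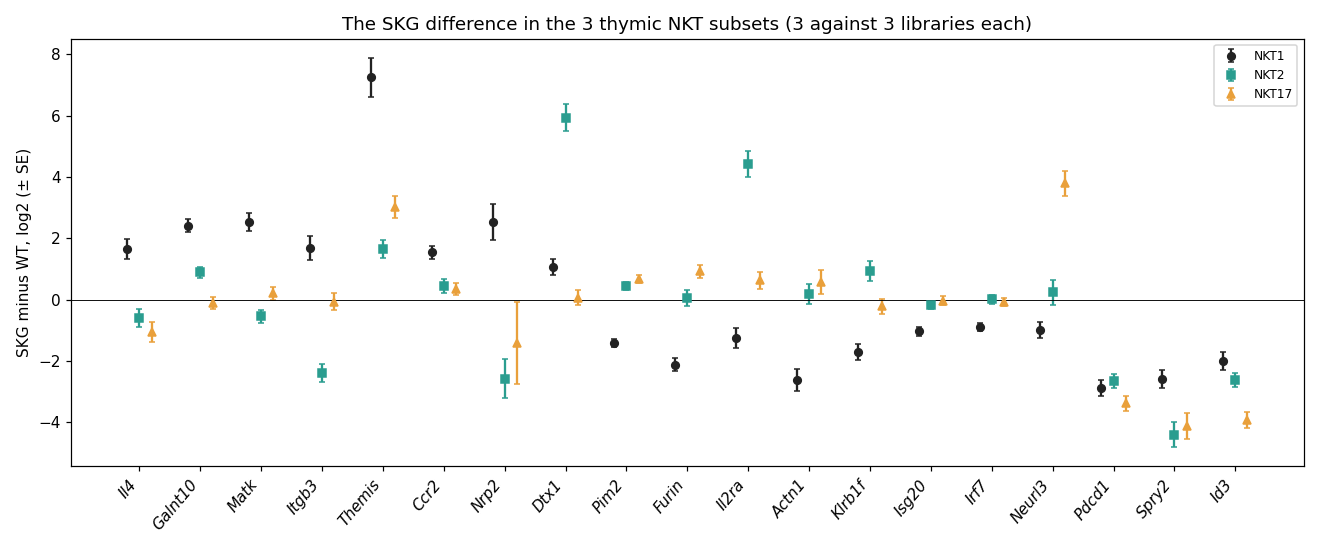
SKG minus WT on the log2 scale of the edgeR fit, with its standard error, for 19 named genes in NKT1 (black circles), NKT2 (green squares) and NKT17 (orange triangles), each from 3 against 3 libraries. Itgb3, Nrp2 and Il2ra, among others, have NKT1 on the other side of 0 from NKT2. So do Il4, Pim2 and Furin, but their NKT2 differences were not called, and that of Furin was close to 0. Pdcd1, Spry2 and Id3 at the right are under 0 in all 3 subsets.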

How the data were processed

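RNA was sequenced from sorted thymic iNKT cells in 18 libraries of 6 groups, 3 each of WT and SKG NKT1, NKT2 and NKT17. The deposited values are raw counts of reads per gene, which the authors made by aligning trimmed reads to the mouse genome and counting the reads of each gene. The submitters' processing notes list TopHat 1.4.1, Bowtie 1.0.0 and HTSeq 0.7.1 and the builds mm10 and hg19, while the methods name mm9, and this was not settled here. Gene symbols do not depend on it, and positions are from GENCODE on NCBIM37 (mm9), matched by symbol. Overlapping genes and genes of near-identical sequence can share or lose reads. Total counts ranged from 4938755 to 8895917 over the 6 NKT1 libraries, so a small difference in a gene of few counts may have been missed. A further 2 columns match none of the samples listed and were not used.

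Counts were fitted with edgeR 4.0.16 (R 4.3.3) by robust quasi-likelihood with TMM scaling over all 18 libraries, after the filter of filterByExpr, which kept 11118 of 15582 genes with a count. The 18 libraries share 1 estimate of the spread, with 12 residual degrees of freedom. Tests were two-sided, p-values were adjusted by Benjamini-Hochberg over all tested genes, and a gene was called at an adjusted p under 0.1 and a fold change of at least 1.5. The difference between subsets was the interaction contrast of the same fit. The floor for a group at 0 counts was 3 counts over its libraries, and intervals cover counting error at 95%. Alternatives were DESeq2 1.42.0, other scalings, filters, thresholds and samples in the fit, a block by the number in the library titles, and leaving out each library. The fit was tested on simulated counts with known changes. Replicates of a group differed by more than sampling noise (8.15 to 25 times that noise by a chi-square statistic over its degrees of freedom).

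The genes and lists were chosen with earlier results of these data known. Named were the markers, the 12 largest rises and falls, up to 4 called members and the most abundant uncalled member of each list, and the 3 genes most unlike each other subset. Other members named were chosen after their values were seen, to complete a list. Some genes that the rule or the lists hold are not reported here and were left out of the lists. Promoter sequences are from RefSeq.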

Additional observations from a re-analysis of the deposited data

Results flagged for a closer look

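For genes that the rule for named genes selects and that were called in NKT1, the SKG difference was compared with that of the other subsets by edgeR's interaction test in the same fit, and each gene below was picked out because that test passed (adjusted p under 0.1). Each value is the SKG minus WT log2 difference in NKT1 minus the same in the other subset, from 3 against 3 libraries each, and no explanation was tested.

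Against NKT2, 32 genes differed. The value was above 0 for genes whose SKG difference was the more positive in NKT1, at 1.10 (Ccr2), 1.52 (Galnt10), 3.05 (Hpse), 2.25 (Il4), 4.09 (Itgb3), 3.07 (Matk), 1.77 (Nlrx1), 5.11 (Nrp2), 2.49 (Sept8), 1.81 (Spry2) and 1.56 (Susd2). It was below 0 for genes whose SKG difference was the more negative in NKT1, at -2.81 (Actn1), -1.30 (Bcl2a1d), -1.62 (Cish), -4.88 (Dtx1), -2.20 (Furin), -1.47 (Gpr18), -0.53 (Ifngr1), -5.67 (Il2ra), -0.89 (Irf7), -0.69 (Irf9), -0.86 (Isg20), -0.60 (Itgb7), -2.65 (Klrb1f), -2.01 (Nrp1), -3.22 (Nsg2), -1.87 (Pim2) and -2.27 (Socs3). The values of 4.98 (Il13), -5.30 (Lag3), 5.61 (Themis) and -4.21 (Tigit) rest on groups with few or no counts, and their fitted size is no measure of the difference.

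Against NKT17, 27 genes differed. The value was above 0 for genes whose SKG difference was the more positive in NKT1, at 1.20 (Ccr2), 2.52 (Galnt10), 1.95 (Id3), 2.71 (Il4), 1.89 (Irf8), 1.77 (Itgb3), 2.31 (Matk), 1.74 (Nr1d1), 1.59 (Sept8), 1.72 (Susd2) and 2.79 (Trpm6). It was below 0 for genes whose SKG difference was the more negative in NKT1, at -3.19 (Actn1), -1.04 (Cish), -1.52 (Dusp6), -3.06 (Furin), -1.78 (Ikzf2), -1.89 (Il2ra), -0.81 (Irf7), -1.004 (Isg20), -1.5 (Klrb1f), -4.78 (Neurl3), -2.10 (Pim2), -1.45 (Socs3) and -1.71 (Tnfrsf9). The values of 8.56 (Il13), 4.23 (Themis) and -6.95 (Tigit) rest on groups with few or no counts, and their fitted size is no measure of the difference.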

How the results depend on the processing

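No named gene had opposite directions in the main fit and an alternative where it was called in either of them. Xist, not called in the main fit, was called only with the block by title number (log2 difference 9.45) and reached -6.15 in another alternative. Values of named genes that were not called could change sign, such as Ifng (log2 difference -0.37 to 0.15) and Sdc1 (-0.68 to 1.63). DESeq2 called 475 genes, 359 of them shared with the 364, and 177 that differed from NKT17. At an adjusted p under 0.05, 105 genes were higher, 73 differed from NKT2 and 70 from NKT17. With only the 6 NKT1 libraries in the fit, 207 genes were called, 78 higher and 129 lower, of which 182 were shared, and the calls of Aurka, Bcl2a1d, Gbp6, Igtp, Ikzf3, Itga4, Rora, Runx1, Tec and Ubash3b, among others, were lost. Leaving out 1 library gave 249 (without SKG replicate 1) to 400 (without WT replicate 1) called genes, 121 to 204 higher and 128 to 214 lower, with 74 to 139 that differed from NKT2 and 74 to 143 from NKT17. The share of higher genes was 44.5%, against 45.8% with RLE and 49% with upper-quartile scaling. Title numbers 10 and 11 occur in both genotypes, but libraries with the same number did not deviate together (correlations 0.0322 and -0.131), so they were not shown to pair. The replicate block by title number called 390 genes, 187 higher and 203 lower, 284 of them shared. Chosen after the data were seen, a term for the sex pattern gave 393 called genes (360 shared), and the 4 libraries with Y-linked counts alone 274 (190 shared), of which 72 differed from NKT2. The causes of these changes were not tested, except that fits on fewer libraries have fewer samples. Depth limits genes of few counts, and 3 libraries a group limit the precision of all values.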
